A study of Mus musculus with 9 samples.

Results

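The tripartite motif (TRIM) genes encode a large family of proteins, most of them ubiquitin ligases, and were examined here in CD8+ T cells from mouse spleens. Members were the symbols made of Trim and a number, with or without a final letter and with Trim25 left out. They were selected on detection above 0 TPM (a read share scaled by gene length and library depth) in at least 1 library. Of 63 such symbols among 18188 listed genes, 62 were members, and Trim29 was at 0 in all 9 libraries.

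A TRIM protein typically carries a RING domain that hands ubiquitin from an E2 enzyme to a substrate, B-box zinc fingers, and a coiled coil through which it dimerises. The C-terminal domain differs between subfamilies and selects the substrate, with the PRY-SPRY domain the most common. Interferon switches on several members, and TRIM proteins promote or restrain signalling by the sensors and adaptors that detect viral RNA and DNA, RIG-I among them.

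The series compared 5 wild-type (WT) libraries with 4 libraries from a knockout of Rig1 (Rig1 KO, here also the knockout), the gene for the RNA sensor RIG-I, listed in the files as Ddx58. The labels give tissue, cell type and genotype, and no treatment or time point. The sources used here do not give the age of the mice, the kind of deletion, or whether each library came from its own animal. The p-values therefore reflect only how these libraries vary, and that variation may be technical. Messenger RNA was isolated by its poly(A) tail, and the reads recovered from the TPM values numbered 15496262 to 17893558 per library in WT and 15509876 to 17866952 in Rig1 KO.

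Ddx58 averaged 65.1 ± 2.0 TPM in WT and 33.3 ± 2.04 TPM in the knockout (SD, n = 5 and 4), so 51.1% of the WT level was left. An exact two-sided permutation test gave p = 0.00794, the smallest this design allows. All 8 CD8 T cell markers were detected and rose, summing to 3712 to 4282 TPM in WT, against 5120.0 to 5709.7 TPM in the knockout. After median ratio scaling 4 of the 8 were called higher, and with a covariate for the B cell markers 3 were. RNA of other cell types was present in both groups. The 8 listed B cell markers summed to 165 to 1157 TPM in WT, against 92.7 to 199 TPM in the knockout, with WT 5 highest, and 7 of them fell. Platelet markers summed to 180.1 to 242 TPM in WT, against 31.2 to 39.3 TPM in the knockout, and 4 of 4 fell. Basophil and mast cell markers summed to 11.7 to 46.3 TPM in WT, against 207 to 404 TPM in the knockout, and 5 of 5 rose. Natural killer cell markers summed to 67.6 to 189 TPM in WT, against 135 to 196 TPM in the knockout, and Ncr1 and Klrb1c rose, 2 of the 4 tested, to 3.21 and 2.80 times the WT level with no overlap. Among dendritic cell markers (14.9 to 62.3 TPM in WT, against 55.5 to 66 TPM in the knockout) Itgax rose, 1 of the 4 tested, to 2.95 times the WT level with no overlap. Xcr1, Clec9a and Siglech were not called and pointed downward, at 0.47, 0.53 and 0.52 times the WT level, so the higher sum reflects Itgax. None of the listed markers was at 0 in all libraries. Except for the B cell covariate, their part in the TRIM values was not tested. In bulk RNA of this kind, fewer cells of a type and less RNA per cell cannot be told apart.

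TRIM transcripts changed more often upward than downward with the knockout. Of the 62 members, 37 reached the level needed for a test (at least 1 TPM in at least 4 libraries). Of these, 24 changed (adjusted p under 0.05, 64.9%), against 45.7% of all 10540 genes tested. Among them 19 rose (51.4%), against 33.5% of all genes, and 5 fell (13.5%), a share near the 12.2% of all genes. The rise was led by Trim5, Trim30c, Trim12c and Trim34a, at 2.07 to 2.77 times the WT level, and the fall by Trim13 and Trim15, at 0.37 times the WT level each.

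The groups did not overlap for 19 tested members (51.4%), against 38.1% of all genes tested. In 16 of them every Rig1 KO library was above every WT library, which held for 28.0% of all genes. In the other 3, Trim13, Trim15 and Trim36, every Rig1 KO library was below, which held for 10.1%. The median log2 fold change (Rig1 KO minus WT, on log2(TPM + 1), which understates the change of low genes) was 0.24 for the tested members and 0.13 for all tested genes. Calls with a change of at least 0.5 on this scale numbered 13 upward, which 13.1% of all genes had, and 4 downward, which 5.90% had. Median ratio scaling, which brings the median of all tested genes to 0.00, left 15 members higher and 8 lower, against 22.6% and 22.7% of all genes. All 13 members that rose by at least 0.5 stayed called under that scaling.

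**Figure D1:**
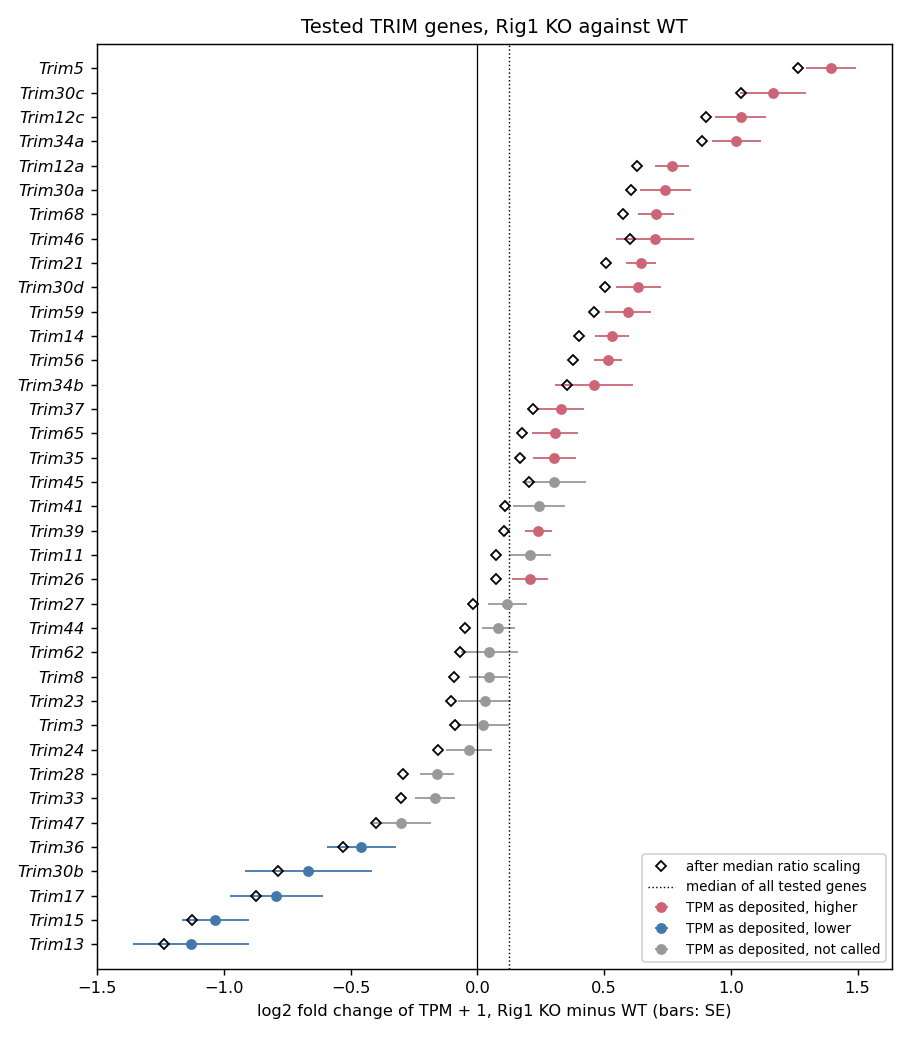
Log2 fold change of TPM + 1 (Rig1 KO minus WT, x axis) of the 37 tested TRIM genes (y axis), as points with SE bars from the limma fit of 5 WT and 4 Rig1 KO libraries, coloured by call. Open diamonds give the same after median ratio scaling and the dotted line marks the median of all tested genes, 0.13. Trim5 lies at 1.40 and Trim13 at -1.13, the ends of the range.

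A run of 10 neighbouring TRIM genes on chromosome 7 includes the mouse relatives of the human retrovirus restriction factor TRIM5, and it held the 6 largest rises of the family on the log2(TPM + 1) scale. By the ratio of mean TPM, Trim46, outside this run and low, was above Trim12a and Trim30a, at 1.97 times the WT level against 1.70 times for each. From Trim6 to Trim30d, 9 of the 10 were tested, 8 rose (33.5% of all genes) and 1, Trim30b, fell (12.2% of all genes). Their summed level was 376 to 431 TPM in WT, against 642 to 812 TPM in the knockout, so the groups did not overlap. The 4 listed genes on each side of the run lay below the level needed for a test. The median log2 fold change of the 9 was 0.77. After median ratio scaling 7 were higher and 1 lower (22.6% and 22.7% of all genes), with a median of 0.63.

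Trim5 measured 14, 10.8, 13.1, 13.1 and 12.9 TPM in WT 1 to 5 and 31.9, 31.7, 42.8 and 35.2 TPM in knockouts 1 to 4. Every knockout library lay above every WT library (log2 fold change 1.40, SE 0.0999, adjusted p = 2.32e-06). Trim12c measured 58.4, 54.4, 67.7, 61.2 and 53.4 TPM in WT 1 to 5 and 113, 105, 146 and 127 TPM in knockouts 1 to 4. The groups were again apart (log2 fold change 1.04, SE 0.101, adjusted p = 2.09e-05). Trim12a rose from 181 ± 15.1 to 309 ± 15 TPM (SD, n = 5 and 4), with 168 to 204 TPM in WT and 290.5 to 323 TPM in the knockout. Trim5, Trim12c and Trim12a are near copies. In a GRCm38 annotation 36.3% of the 50-base words of Trim5 transcripts, 33% of those of Trim12c and 10.4% of those of Trim12a occurred in another gene, so their separate values are uncertain.

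Trim34a measured 39.8, 44.9, 43.2, 45 and 48.1 TPM in WT 1 to 5 and 84, 75.7, 103 and 103 TPM in knockouts 1 to 4. No library of either group reached into the range of the other (log2 fold change 1.02, SE 0.0968, adjusted p = 1.77e-05). Trim34b was low, at 2.31 to 4.38 TPM in WT and 3.52 to 5.26 TPM in the knockout, and its groups overlapped. Its call (log2 fold change 0.46, SE 0.154, adjusted p = 0.031) was lost after median ratio scaling (adjusted p = 0.081), with the B cell covariate (adjusted p = 0.571) and without any of WT 1, WT 2, WT 5, Rig1 KO 2, Rig1 KO 3 or Rig1 KO 4 (adjusted p up to 0.0917). Shared 50-base words made up 39.8% of Trim34a and 56.8% of Trim34b, most often with each other.

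The Trim30 genes did not all move in one direction. Trim30a restrains NF-κB by removing the adaptors TAB2 and TAB3. Trim30a measured 63.8, 63.9, 67.7, 66 and 61.2 TPM in WT 1 to 5 and 111, 88, 135 and 105 TPM in knockouts 1 to 4. The WT libraries were close together and all knockout libraries higher (log2 fold change 0.74, SE 0.101, adjusted p = 0.000193). Trim30d rose from 18.1 ± 1.49 to 28.7 ± 3.5 TPM (log2 fold change 0.64, SE 0.0889, adjusted p = 0.000238) and Trim30c from 7.51 ± 1.64 to 17.9 ± 1.93 TPM (log2 fold change 1.17, SE 0.129, adjusted p = 5.12e-05), in both cases with no overlap. Trim30b measured 6.67, 9.55, 6.92, 11.5 and 18.1 TPM in WT 1 to 5 and 5.59, 4.69, 7.94 and 5.6 TPM in knockouts 1 to 4. These ranges overlapped and WT 5 stood highest (log2 fold change -0.67, SE 0.25, adjusted p = 0.0494). The value of Trim30b turned to 0.32 (adjusted p = 0.244) with the B cell covariate, and its call was lost without any of WT 2, WT 4, WT 5, Rig1 KO 1, Rig1 KO 2 or Rig1 KO 4 (adjusted p up to 0.119). Shared 50-base words made up 0.55% of Trim30b, 0.66% of Trim30c, 5.98% of Trim30a and 7.49% of Trim30d.

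**Figure D2:**
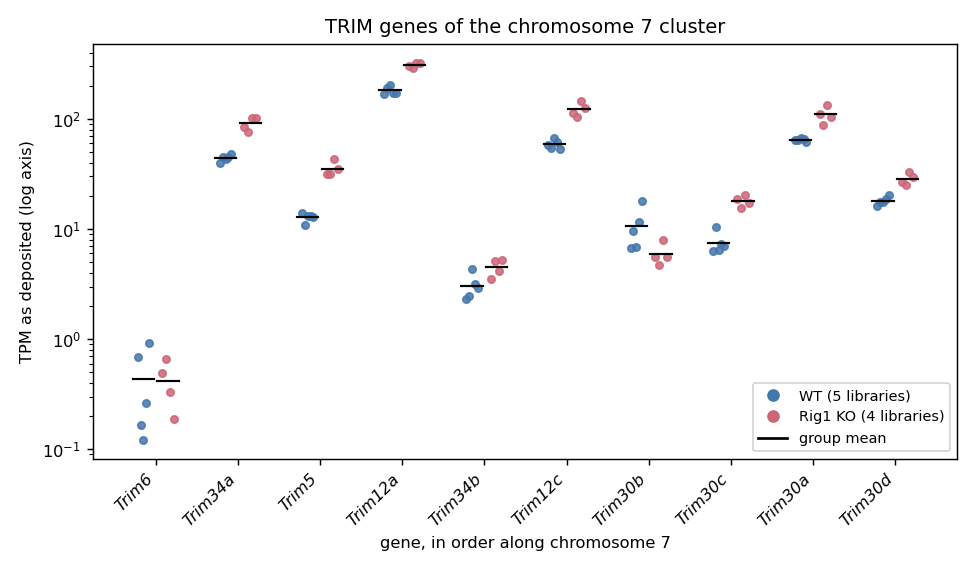
TPM as deposited (log axis) of the 10 TRIM genes of the chromosome 7 cluster in gene order, 1 point per library with the group means as bars (5 WT, 4 Rig1 KO). The groups are apart for Trim34a, Trim5, Trim12a, Trim12c, Trim30c, Trim30a and Trim30d, while Trim6, Trim34b and Trim30b overlap.

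Promoters were read for a short sequence through which interferon acts, the interferon-stimulated response element (ISRE). Its core (GAAA, any 2 bases, GAAA) was searched on both strands of RefSeq promoters of build GRCm38.p6, which run 300 bases, from 250 before to 50 after an annotated start. Promoters were given for 48 of the 62 members, and 9 of these genes (18.8%) held the core, against 4.03% of 8495 tested genes with a promoter. It stood in 8 of the 16 members that rose, in 0 of the 3 that fell, in 0 of the 9 not called and in 1 of the 20 not tested, Trim2. Of 2839 tested genes that rose, 4.90% held it. The 8 members were Trim21, Trim34a, Trim5, Trim12a, Trim12c, Trim30a, Trim30d and Trim26, while Trim34b and Trim30c rose without it. The promoters of Trim5, Trim12a and Trim12c are near copies, as are those of Trim30a and Trim30d. The 8 matches are therefore not independent. The core of the gamma-activated site, TTCNNNGAA, likewise searched on both strands and in no member promoter together with the ISRE core, was in 6 of the 48 (12.5%) and in 8.30% of the tested genes. A match is a description of letters only. Among the members that fell, the region read for Trim30b probably lies inside the gene.

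The promoters of Trim21 and of 4 genes of the cluster are shown because they hold the core, marked in capitals. The region given for Trim30b, a neighbour that was called lower, holds none. Trim30b spans 14503 bases in the GRCm38 annotation and overlaps no other gene, and its region lies closer than that to the Trim12c promoter. The region therefore probably lies inside the gene, and its lack of the core cannot be compared with the other promoters. Each sequence is written from 5′ to 3′ along its gene.
Trim21, chr7:102565433-102565732, - strand: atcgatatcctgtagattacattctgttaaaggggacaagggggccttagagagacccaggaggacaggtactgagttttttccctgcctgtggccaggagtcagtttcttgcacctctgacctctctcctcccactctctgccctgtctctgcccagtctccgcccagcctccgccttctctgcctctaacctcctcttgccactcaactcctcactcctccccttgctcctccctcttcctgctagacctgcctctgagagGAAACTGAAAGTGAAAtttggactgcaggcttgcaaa
Trim34a, chr7:104244207-104244506, + strand: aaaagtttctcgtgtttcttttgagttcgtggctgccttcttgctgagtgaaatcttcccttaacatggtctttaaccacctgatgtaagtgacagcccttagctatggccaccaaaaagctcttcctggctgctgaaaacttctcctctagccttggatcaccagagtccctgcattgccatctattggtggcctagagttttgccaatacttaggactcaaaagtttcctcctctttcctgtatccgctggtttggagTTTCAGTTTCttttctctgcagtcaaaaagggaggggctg
Trim5, chr7:104288057-104288356, - strand: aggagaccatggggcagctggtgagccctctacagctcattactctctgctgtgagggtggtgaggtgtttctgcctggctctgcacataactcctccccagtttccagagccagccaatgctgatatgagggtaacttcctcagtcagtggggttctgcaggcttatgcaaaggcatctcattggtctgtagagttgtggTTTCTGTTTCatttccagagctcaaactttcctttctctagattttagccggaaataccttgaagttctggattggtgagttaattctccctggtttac
Trim12c, chr7:104353300-104353599, - strand: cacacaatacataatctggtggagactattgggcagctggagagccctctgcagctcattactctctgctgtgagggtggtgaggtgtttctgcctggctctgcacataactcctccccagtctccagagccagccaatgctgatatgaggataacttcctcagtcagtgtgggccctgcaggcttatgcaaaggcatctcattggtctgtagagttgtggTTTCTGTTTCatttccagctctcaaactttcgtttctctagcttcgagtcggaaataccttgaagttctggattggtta
Trim30a, chr7:104465144-104465443, - strand: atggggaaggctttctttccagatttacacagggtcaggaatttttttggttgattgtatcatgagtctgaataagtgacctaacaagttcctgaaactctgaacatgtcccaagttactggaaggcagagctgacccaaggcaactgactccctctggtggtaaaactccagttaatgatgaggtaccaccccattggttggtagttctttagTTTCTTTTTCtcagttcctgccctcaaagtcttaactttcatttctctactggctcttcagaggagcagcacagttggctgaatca
Trim30b, chr7:104358597-104358896, - strand: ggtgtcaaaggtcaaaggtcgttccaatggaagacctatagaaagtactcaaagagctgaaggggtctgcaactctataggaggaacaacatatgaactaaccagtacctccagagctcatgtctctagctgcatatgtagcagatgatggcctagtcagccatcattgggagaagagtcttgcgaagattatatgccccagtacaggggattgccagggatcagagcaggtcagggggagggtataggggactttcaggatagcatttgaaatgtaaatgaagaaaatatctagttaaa

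In Trim21 overlapping cores began 13 and 19 bases after the annotated start. In Trim34a the core lay on the opposite strand, 10 bases after it. In Trim5 and Trim12c the letters GAAACAGAAA on the opposite strand lay 49 and 29 bases before the start, and in Trim30a GAAAAAGAAA lay 36 bases before it. A second Trim30a promoter held the same letters 2 bases after its start.

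**Figure D3:**
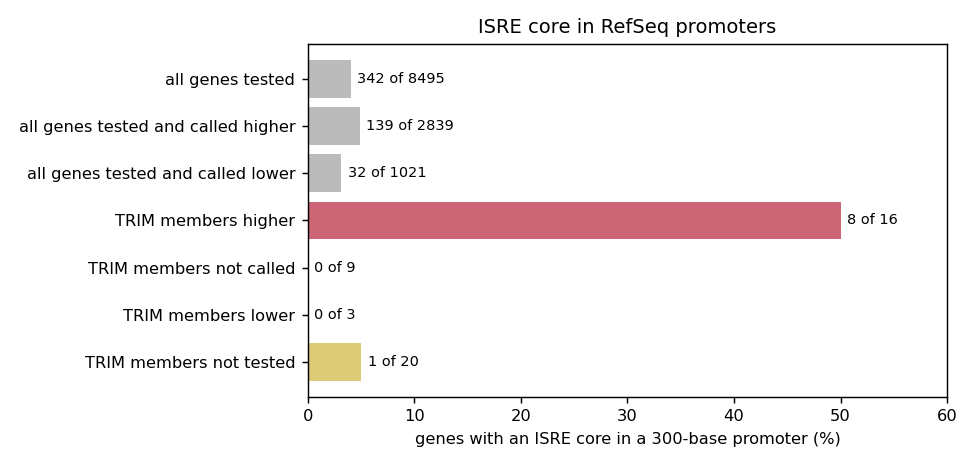
Percent of genes with at least 1 ISRE core (either strand) in a 300-base RefSeq promoter (x axis), for tested genes and for TRIM members by call, with counts beside the bars. The core stands in 8 of 16 members that rose and in 342 of 8495 tested genes. Some of the 8 have near-copied promoters.

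Of the 15 TRIM genes listed as interferon-inducible, 13 were tested, 12 rose, against 33.5% of all genes, and 1, again Trim30b, fell, against 12.2%. All 10 genes of the chromosome 7 run are on this list. Its summed level was 881 to 931 TPM in WT, against 1293 to 1538 TPM in the knockout, and the median log2 fold change was 0.64. After median ratio scaling 10 were higher and 1 lower (22.6% and 22.7% of all genes), with a median of 0.51. Leaving out WT 4 and WT 5, whose B cell marker sums were the largest, gave 11 higher and 0 lower.

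Trim21 is a cytosolic antibody receptor that marks antibody-coated virus particles for the proteasome. Trim21 measured 102, 99.4, 111, 109.6 and 111 TPM in WT 1 to 5 and 164, 163, 184 and 158 TPM in knockouts 1 to 4. The lowest knockout library was above the highest WT library (log2 fold change 0.64, SE 0.0602, adjusted p = 1.6e-05). Trim56, a ligase linked to the DNA-sensing proteins cGAS and STING, had 267, 248, 264, 239.6 and 262 TPM in WT 1 to 5 and 385, 339, 376 and 366 TPM in knockouts 1 to 4. Its groups were apart too (log2 fold change 0.52, SE 0.0548, adjusted p = 3.89e-05).

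Trim14, which lacks a RING domain, is an adaptor of the RIG-I partner MAVS. Trim14 measured 17.4, 18.4, 19, 18.1 and 19.1 TPM in WT 1 to 5 and 25.1, 26, 30.5 and 26.8 TPM in knockouts 1 to 4. The WT libraries differed little among themselves and all knockout libraries were higher (log2 fold change 0.53, SE 0.067, adjusted p = 0.000121). Trim14 lies on chromosome 4 within 10 Mb of Ddx58, and 45.8% of its exon bases lie within the genomic span of Nans, introns included, on the other strand. The sources used here do not say whether counting used strand, so reads from the overlap cannot be told apart. Trim26, which has been linked to the transcription factor IRF3, averaged 117 ± 8.09 TPM in WT and 135 ± 11.1 TPM in the knockout, with overlapping groups. Its call (log2 fold change 0.21, SE 0.0704, adjusted p = 0.0325) was lost after median ratio scaling (log2 fold change 0.07, adjusted p = 0.413) and without any of WT 2, WT 3, Rig1 KO 1, Rig1 KO 3 or Rig1 KO 4 (adjusted p up to 0.096).

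Members that act on the sensing of foreign RNA and DNA were listed separately, and more of them rose than fell, as did genes in general. Of 23 genes on that list 15 were tested, 7 rose (33.5% of all genes), 1 fell (12.2% of all genes) and 7 were not called, with a median log2 fold change of 0.21. After median ratio scaling 5 were higher and 2 lower (22.6% and 22.7% of all genes), with a median of 0.07. Besides Trim14, Trim21, Trim26, Trim30a and Trim56 the risers were Trim59 and Trim65. Trim59 is a membrane protein of the endoplasmic reticulum that dampens innate signalling. Trim59 measured 56, 54.3, 61.2, 53 and 47.2 TPM in WT 1 to 5 and 72.6, 76.4, 92.2 and 89.7 TPM in knockouts 1 to 4. Its groups did not overlap (log2 fold change 0.59, SE 0.0907, adjusted p = 0.000415). Trim65, which adds ubiquitin to the RNA sensor MDA5, averaged 21.7 ± 2.9 TPM in WT and 27 ± 0.965 TPM in the knockout (log2 fold change 0.31, SE 0.0908, adjusted p = 0.0179). Its call was lost after median ratio scaling (adjusted p = 0.131) and with the B cell covariate (adjusted p = 0.11). Of the Trim65 exon bases, 80.5% lie within the genomic span of Trim47, introns included, on the same strand.

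Several sensing regulators showed no called difference. Trim8, which promotes ubiquitin chains on the kinase TAK1, averaged 88.1 ± 5.55 TPM in WT and 91.1 ± 9.95 TPM in the knockout. Trim23, with an ARF domain, averaged 18.6 ± 1.76 TPM in WT and 19.1 ± 3.14 TPM in the knockout. Trim27 averaged 26.5 ± 0.959 TPM in WT and 29 ± 3.41 TPM in the knockout, and Trim44, which also lacks a RING domain, 17.8 ± 0.711 TPM in WT and 19 ± 1.53 TPM in the knockout. The log2 fold changes of Trim8, Trim23, Trim27 and Trim44 lay between 0.03 and 0.12 and were negative, without a call, after median ratio scaling. Trim11 averaged 94.8 ± 11.8 TPM in WT and 109 ± 3.78 TPM in the knockout (log2 fold change 0.21, SE 0.0828, adjusted p = 0.0607). It was called higher without WT 5 (log2 fold change 0.27, adjusted p = 0.00526) and with the B cell covariate (adjusted p = 0.0215). After median ratio scaling it was not called (adjusted p = 0.457).

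The TIF1 proteins carry a PHD finger and a bromodomain and act on transcription at chromatin. None of the 3 tested TIF1 genes was called with TPM as deposited. Trim28 is the corepressor recruited by KRAB zinc finger proteins. Trim28 measured 78.9, 78.1, 72.8, 85.7 and 84.2 TPM in WT 1 to 5 and 66.3, 68.3, 72.3 and 79.1 TPM in knockouts 1 to 4. The ranges overlapped (log2 fold change -0.16, SE 0.0678, adjusted p = 0.0775). Trim33, a regulator of SMAD signalling, averaged 25.3 ± 1.26 TPM in WT and 22.5 ± 2.66 TPM in the knockout (log2 fold change -0.17, SE 0.0784, adjusted p = 0.103). After median ratio scaling both were called lower, Trim28 with a log2 fold change of -0.29 (adjusted p = 0.00138) and Trim33 with -0.30 (adjusted p = 0.00304). Trim28 was also called lower without WT 3 or without Rig1 KO 4 (adjusted p = 0.045 and 0.0337), and Trim33 without Rig1 KO 3 (adjusted p = 0.0172). With exon lengths both were called lower (adjusted p = 0.0165 and 0.0258). With the B cell covariate neither was called, Trim28 at -0.03 (adjusted p = 0.873) and Trim33 at -0.12 (adjusted p = 0.527). Neither was called without WT 4 and WT 5 (adjusted p = 0.297 and 0.13). Trim24, a coregulator of nuclear receptors, averaged 7.17 ± 0.565 TPM in WT and 7.0 ± 0.877 TPM in the knockout (adjusted p = 0.784).

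Outside the interferon, sensing and TIF1 lists 5 more members rose. Trim68 is known as a coactivator of the androgen receptor. Trim68 measured 14.8, 15.1, 14.3, 15.6 and 18 TPM in WT 1 to 5 and 26.2, 25.2, 27.2 and 24.9 TPM in knockouts 1 to 4. All knockout libraries were higher (log2 fold change 0.70, SE 0.0719, adjusted p = 2.94e-05). Trim46, known for bundling microtubules in axons, had 1.42, 1.7, 1.42, 1.58 and 2.71 TPM in WT 1 to 5 and 2.73, 3.5, 3.21 and 4.49 TPM in knockouts 1 to 4. Rig1 KO 1 lay just above WT 5 (log2 fold change 0.70, SE 0.153, adjusted p = 0.00377), and these values rest on 159 reads in WT and 237 in the knockout.

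Trim35 rose from 50.6 ± 4.22 to 62.9 ± 7.26 TPM (adjusted p = 0.0141), with WT 5 just above Rig1 KO 2. Trim37, a ligase of centrosome biology, rose from 3.63 ± 0.353 to 4.82 ± 0.527 TPM (adjusted p = 0.0132) and Trim39, which inhibits the anaphase-promoting complex, rose from 91.3 ± 3.13 to 108 ± 5.93 TPM (adjusted p = 0.0036), both without overlap. Trim39 was not called after median ratio scaling (adjusted p = 0.104), and Trim37 and Trim39 were not called with the B cell covariate (adjusted p = 0.113 and 0.0805).

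The other members not called were Trim41, Trim45, Trim47, Trim62 and Trim3. Trim41, a ligase of protein kinase C, averaged 64.1 ± 9.08 TPM in WT and 75.6 ± 6.93 TPM in the knockout (log2 fold change 0.24, SE 0.103, adjusted p = 0.0771), and Trim45 averaged 2.3 ± 0.601 TPM in WT and 3.03 ± 0.269 TPM in the knockout (log2 fold change 0.30, SE 0.127, adjusted p = 0.0751). Without WT 5 both were called higher (adjusted p = 0.0283 and 0.00585), and so they were with the B cell covariate (adjusted p = 0.02 and 0.0469). After median ratio scaling neither was called (adjusted p = 0.308 and 0.199). Trim47 averaged 3.4 ± 0.536 TPM in WT and 2.57 ± 0.413 TPM in the knockout (log2 fold change -0.30, SE 0.116, adjusted p = 0.0552), and was called lower without WT 2 or without Rig1 KO 1 (adjusted p = 0.0436 and 0.0332) and after median ratio scaling (adjusted p = 0.0216). Trim62, which acts on the adaptor CARD9, averaged 5.02 ± 0.722 TPM in WT and 5.21 ± 0.677 TPM in the knockout, and Trim3, with NHL repeats, 4.02 ± 0.569 TPM in WT and 4.08 ± 0.405 TPM in the knockout.

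The 5 members that fell included Trim13, a membrane-anchored ligase of the endoplasmic reticulum. Trim13 measured 7.23, 4.63, 7.25, 5.87 and 3.81 TPM in WT 1 to 5 and 0.973, 1.84, 3.13 and 2.59 TPM in knockouts 1 to 4. WT 5 and Rig1 KO 3 came closest without overlapping (log2 fold change -1.13, SE 0.228, adjusted p = 0.00238). Trim15 is known from focal adhesions. Trim15 measured 4.37, 3.47, 3.98, 4.65 and 4.06 TPM in WT 1 to 5 and 1.15, 1.96, 1.91 and 1.06 TPM in knockouts 1 to 4. Its groups were well apart (log2 fold change -1.03, SE 0.133, adjusted p = 0.000141). The reads behind these values numbered 334 and 90 for Trim13 and 201 and 56 for Trim15, and 14.2% of the 50-base words of Trim13 occur in another gene.

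Trim17, a ligase known from neuronal apoptosis, had 1.51, 2.09, 3.07, 2.59 and 3.34 TPM in WT 1 to 5 and 1.15, 0.621, 1.52 and 0.791 TPM in knockouts 1 to 4. Rig1 KO 3 lay just above WT 1, so the groups overlapped (log2 fold change -0.79, SE 0.183, adjusted p = 0.00504), and 17.7% of its 50-base words occur in other genes, most often Hist3h2a. Trim36, a microtubule-binding member with a COS box, had 1.25, 1.68, 1.45, 2.17 and 2.46 TPM in WT 1 to 5 and 1.07, 1.07, 1.05 and 0.875 TPM in knockouts 1 to 4. Its groups were apart (log2 fold change -0.46, SE 0.136, adjusted p = 0.0183), and it was not called without Rig1 KO 4 (adjusted p = 0.0537).

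B cell markers moved in the same direction as these 5 genes. When their mean was added to the fit, 2 members were lower, against 5.70% of all genes, and 18 higher, against 21.2%. The 2 were Trim13, with a log2 fold change of -1.38 (adjusted p = 0.0263), and Trim15, with -0.91 (adjusted p = 0.0179). Trim17 and Trim36 had values of -0.50 (adjusted p = 0.235) and -0.10 (adjusted p = 0.711) in that fit. Without WT 4 and WT 5, 3 members were lower (9.83% of all genes) and 21 higher (35.3%), and Trim30b and Trim36 were no longer called (adjusted p = 0.14 and 0.0709). WT 3 was the WT library whose B cell marker sum (165 TPM) lay within the Rig1 KO range. In WT 3, Trim13, Trim15, Trim17 and Trim36 measured 7.25, 3.98, 3.07 and 1.45 TPM, above every knockout library, while Trim30b at 6.92 TPM was not. These values come from 1 library, and beyond the covariate the part of B cell RNA in the 5 falls was not tested.

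**Figure D4:**
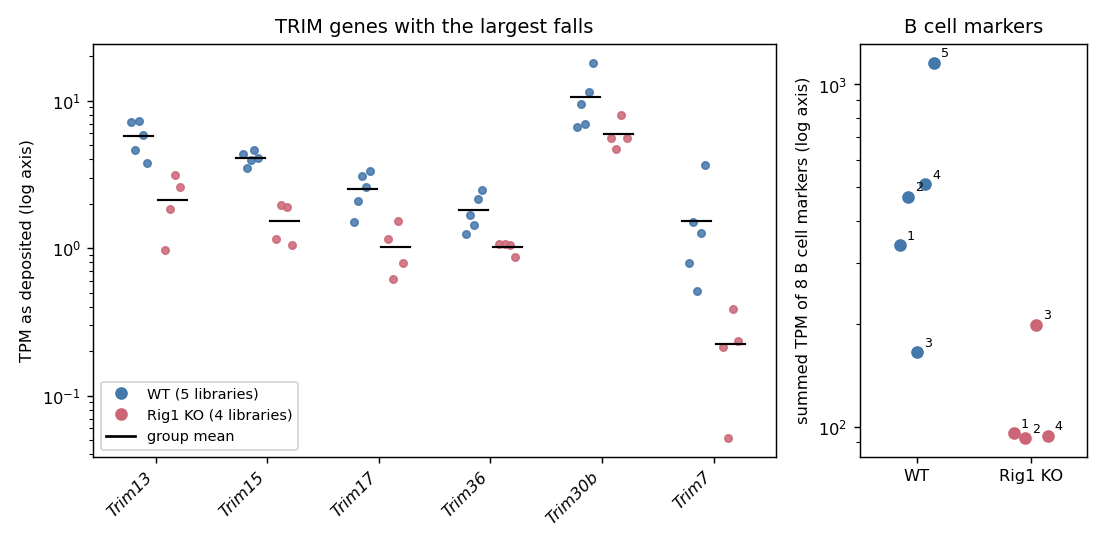
Left, TPM as deposited (log axis) of the 5 members that fell and of Trim7, which was below the level needed for a test, 1 point per library with group means as bars (5 WT, 4 Rig1 KO). Right, the summed TPM of 8 B cell markers (log axis) with library numbers, where WT 3 at 165 TPM lies among the Rig1 KO libraries and WT 5 at 1157 TPM is highest.

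The 25 members not tested had 2 to 523 reads in all libraries together. The level needed for a test was set on TPM whose lengths include introns, so it was stricter for genes with long introns. Trim2 (523 reads) and Trim7 (326) had more reads than the tested Trim15 (257). Trim7 is known for its binding to glycogenin. Trim7 measured 0.788, 1.5, 0.51, 1.26 and 3.65 TPM in WT 1 to 5 and 0.215, 0.0516, 0.388 and 0.235 TPM in knockouts 1 to 4. The groups were apart and WT 5 was highest, as it was for the B cell markers. Trim10, a gene of red cell development, was the other untested member whose groups did not overlap, at 0.0866 to 0.674 TPM in WT and 0.68 to 1.79 TPM in the knockout, with WT 4 highest in its group. The 7 listed erythroid markers summed to 75 to 205 TPM in WT, against 183 to 325 TPM in the knockout, WT 4 again highest in its group, and the part of red cell RNA in the Trim10 values was not tested. How often the groups are apart among all genes below the level for a test was not counted. Without a filter on low genes Trim7 had a log2 fold change of -0.95 (adjusted p = 0.0376) and Trim10 of 0.71 (adjusted p = 0.0123). In that fit 3378 of 17934 genes were higher and 1428 lower.

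The other 23 overlapped between groups. Trim58, also an erythroid gene, ranged over 0.222 to 0.83 TPM in WT and 0.338 to 1.43 TPM in the knockout. Trim6, at the end of the chromosome 7 run, ranged over 0.122 to 0.918 TPM in WT and 0.187 to 0.658 TPM in the knockout. Trim16, which lacks a RING domain, ranged over 0.152 to 0.631 TPM in WT and 0.469 to 1.07 TPM in the knockout. These 3 were therefore detected at low levels in every library. Of the muscle genes, Trim72, a membrane repair protein, ranged over 0.187 to 0.612 TPM in WT and 0.176 to 0.95 TPM in the knockout, and the highest values of Trim54, Trim55 and Trim63 were 0.118, 0.0521 and 0.107 TPM. Trim2, a neuronal member with NHL repeats, ranged over 0.173 to 0.282 TPM in WT and 0.223 to 0.345 TPM in the knockout. The TIF1 gene Trim66 ranged over 0.0464 to 0.202 TPM in WT and 0.0389 to 0.159 TPM in the knockout.

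Trim9, Trim71, Trim43a, Trim50, Trim52, Trim60, Trim75 and Trim80 were above 0 in at least 5 libraries and below 1 TPM in each. Trim9 and Trim71 were detected in all 9, at 0.0133 to 0.0581 TPM in WT and 0.00653 to 0.0378 TPM in the knockout for Trim9 and 0.0231 to 0.0959 TPM in WT and 0.0109 to 0.0823 TPM in the knockout for Trim71. The highest values of Trim43a, Trim50, Trim52, Trim60, Trim75 and Trim80 were 0.168, 0.17, 0.112, 0.172, 0.412 and 0.705 TPM, and each was at 0 in at least 1 library. Trim31, Trim38, Trim40, Trim43b, Trim43c, Trim63 and Trim67 were above 0 in fewer than 5 libraries, with 2 to 10 reads in all.

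Levels of different genes were compared per exon length, from the recovered reads rescaled to TPM, because the lengths behind the deposited values include introns. Whether reads in introns were counted is not stated. If they were, these values are too high for genes with long introns, and the ranks would change with them. Such genes include Trim44 (107710 bases of genomic span, 5645 of exons) and the top-ranked Trim30a (56169 and 4111). On that scale Trim30a ranked 1 in both groups, at 325 ± 13.6 in WT and 538 ± 85.1 in Rig1 KO. Trim28 ranked 2 in WT (226 ± 13.2) and 4 in Rig1 KO (197 ± 12.6), while Trim12a went from rank 3 (180.1 ± 16.1) to rank 2 (299 ± 8.12). Trim34a moved from rank 8 (112 ± 7.26) to rank 3 (225 ± 28.7) and Trim12c from rank 10 (85 ± 8.35) to rank 5 (172 ± 21.5). In WT, the neighbours Trim26, Trim8, Trim11 and Trim44 (139.6, 133, 130.3 and 125) each lay within 1 SD of the next in order, whereas the values of Trim26 and Trim44 were further apart than their SDs together (8.58 and 3.9). At the lower end Trim15, Trim17 and Trim34b (5.03, 4.57 and 4.51 in WT) did not differ beyond their spread.

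**Figure D5:**
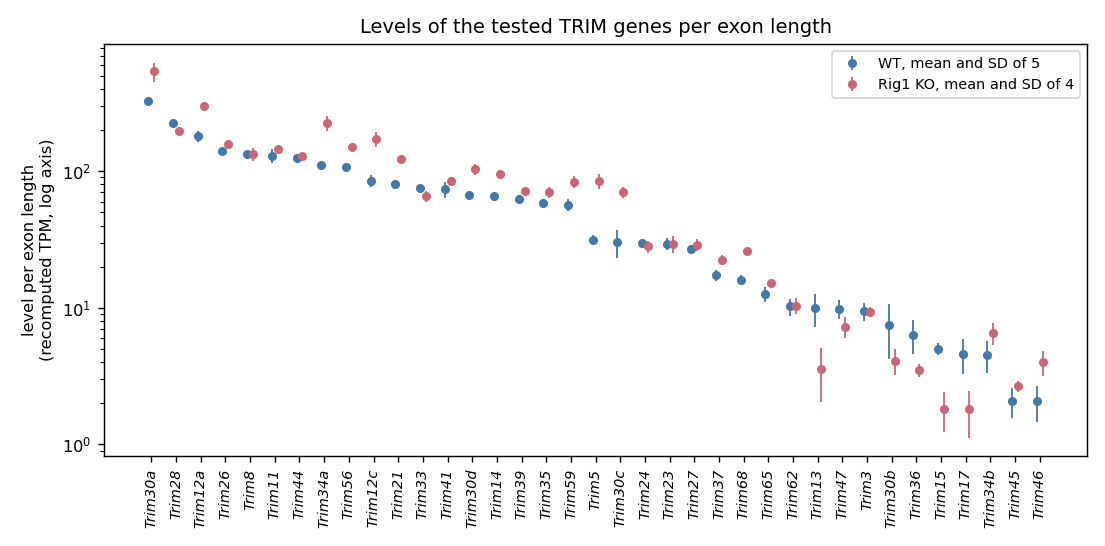
Level per exon length (TPM recomputed from recovered reads, log axis) of the 37 tested TRIM genes in order of their WT level, as mean and SD of 5 WT and 4 Rig1 KO libraries. Trim30a is highest in both groups, at 325 in WT and 538 in Rig1 KO. If reads in introns were counted, levels of genes with long introns, Trim30a among them, are too high.

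By C-terminal domain, members with a COS box, with or without a SPRY domain, were kept as a class of their own. Of the 23 tested PRY-SPRY members 15 rose (33.5% of all genes), 3 fell (12.2% of all genes) and 5 were not called. Their median log2 fold change was 0.31. After median ratio scaling 11 were higher and 4 lower (22.6% and 22.7% of all genes), with a median of 0.18. The PRY-SPRY class holds the chromosome 7 run. Of 8 tested members with another or no such domain 3 rose and 1 fell, close to the shares of all genes. Of 2 tested COS box members Trim46 rose and Trim36 fell.

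Family members under other names were measured as well. Pml, the scaffold of nuclear bodies, averaged 47.9 ± 3.98 TPM in WT and 47.8 ± 4.82 TPM in the knockout (adjusted p = 0.984). Mefv, the pyrin gene of myeloid cells, rose from 2.23 ± 1.22 to 4.17 ± 0.809 TPM (adjusted p = 0.0227) with overlapping groups. Mid1 and Mid2 were below the TPM level needed for a test, which is stricter for genes with long introns. Mid1 had 1922 reads in all libraries together, more than the 257 of the tested Trim15. The 8 listed myeloid markers summed to 638 to 1414 TPM in WT, against 1051 to 1193 TPM in the knockout, 2 of them fell and 6 were not called, with a median log2 fold change of 0.36. Without WT 4 and WT 5, 5 of them were called higher and 1 lower, with a median of 0.59, and the part of myeloid RNA in the Mefv values was not tested.

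The enzymes that supply RING ligases with ubiquitin moved in both directions, with rises less frequent and falls more frequent than over all genes. Of 17 tested E1 and E2 genes, 3 rose (33.5% of all genes), 5 fell (12.2% of all genes) and 9 were not called. Their median log2 fold change was -0.03, and after median ratio scaling 3 were higher and 8 lower (22.6% and 22.7% of all genes). Ube2g2 and Ube2d1 rose from 23.2 ± 3.11 to 36.5 ± 2.02 TPM (adjusted p = 0.000357) and from 20.6 ± 1.34 to 25.5 ± 1.67 TPM (adjusted p = 0.00504). Ube2e3 and Ube2j1 fell from 6.45 ± 0.703 to 3.8 ± 0.472 TPM (adjusted p = 0.000466) and from 111 ± 5.18 to 87.9 ± 9.98 TPM (adjusted p = 0.00349). The ubiquitin precursor genes Ubb and Rps27a fell, Ubb from 3981 ± 173 to 3213 ± 173 TPM (adjusted p = 0.0018) and Rps27a from 1549.5 ± 107 to 1263 ± 228 TPM (adjusted p = 0.0401). With the B cell covariate neither was called, and 2 of the 17 E1 and E2 genes were higher and 0 lower (21.2% and 5.70% of all genes).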

How the data were processed

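Poly(A) RNA-seq covered 5 WT and 4 Rig1 KO libraries of CD8+ T cells, grouped by their titles. The authors deposited TPM values, 1 column per library, per the file headers. Reads were processed with fastp and featureCounts on mm39 (GRCm39), per the submitters' processing notes. The sources used here do not give the aligner, annotation or strand setting. Whole reads were recovered from the TPM values of all 18188 genes (relative tolerance 2e-12; checked on simulated counts). The lengths they imply lay within 1% of the genomic span, introns included, for 99.0% of 12794 genes, so levels of different genes were compared only after rescaling by GENCODE M21 (GRCm38) exon lengths. That annotation served for names, order, overlaps and lengths.

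Where 4 or more libraries reached 1 TPM, log2(TPM + 1) entered a fit with limma 3.58.1 (R 4.3.3, mean-variance trend, no covariates, two-sided, Benjamini-Hochberg over 10540 genes, threshold 0.05; tested on simulated data). Named were all tested members, with full statistics for those called with a change of at least 0.5 or on the interferon, sensing and TIF1 lists, members not tested but above 0 in at least 5 libraries, and up to 4 genes of other lists. Members and lists were chosen with earlier results of these data known. Alternatives were other pseudocounts (0.1 and 0.5), filters, scalings, exon lengths, left-out libraries, a B cell covariate (mean log2(TPM + 1) of 8 markers) and a replicate block. Same-numbered libraries did not deviate together, so no pairing was used. A gene on these lists is not reported here.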

Additional observations from a re-analysis of the deposited data

Results flagged for a closer look

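Among 55 members, tested or above 0 in at least 5 libraries, 110 groups of values were examined for a library far from the others of its group, and 9 stood out, where chance gives about 5% of groups. In WT 5, Trim46 was at 2.71 TPM (the other WT libraries 1.42 to 1.70) and Trim45 at 3.35 TPM (1.84 to 2.21). In WT 2, Trim30c was at 10.3 TPM (6.35 to 7.39) and Trim2 at 0.173 TPM (0.254 to 0.282). Trim36 was at 0.875 TPM in Rig1 KO 4 (1.05 to 1.07 in the others), and Trim10 at 0.674 TPM in WT 4 (0.0866 to 0.241). The other 3 were values near 0: Trim60 at 0.172 TPM in WT 3, Trim43a at 0.0849 TPM in Rig1 KO 2 and Trim80 at 0.705 TPM in Rig1 KO 3.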

How the results depend on the processing

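Of the 24 members called, 16 kept their direction and call under each of the 20 alternatives that tested them: Trim5, Trim12a, Trim12c, Trim14, Trim21, Trim30a, Trim30c, Trim30d, Trim34a, Trim35, Trim46, Trim56, Trim59, Trim68, Trim13 and Trim15. The other 8 lost the call under at least 1, Trim34b under 11, Trim30b under 10, Trim26 under 8, Trim36 under 4, Trim39 and Trim65 under 3 each, and Trim17 and Trim37 under 1 each. Trim30b turned to 0.32 with the B cell covariate. Of the members not called, 6 were called under at least 1 alternative, and 7 changed sign without a call, to values of at most 0.15 in size. The number of members lower, 5, was 1 with a mean TPM of at least 5 (fewer genes tested), 8 after median ratio scaling, 8 after quantile scaling, 8 with exon lengths, 2 with the B cell covariate and 3 without WT 4 and WT 5; the cause was not tested. Over all genes, lower calls went from 1291 to 2391, 2197 and 601 after median ratio scaling, after quantile scaling and with the B cell covariate, and higher calls from 3526 to 2236 with that covariate. Leaving out 1 library gave 17 to 21 members higher, 4 to 6 lower, 2795 to 3592 genes higher and 1098 to 1282 lower. Same-numbered libraries had correlations of their deviations from -0.10 to 0.097, so the numbers do not pair them; with the replicate block, on WT 1 to 4 and Rig1 KO 1 to 4, 22 members were higher and 3 lower. The lowest tested members rest on few reads, down to 9 in a library.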
